A study of Mus musculus with 30 samples.

Results

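The genes described here encode the creatine kinases and adenylate kinases that move high-energy phosphate through the heart muscle cell. The 6 genes, taken by symbol from the 52550 genes in the deposited count table, are Ckm, Ckb, Ckmt2, Ak1, Ak3 and Ak4. Of these, Ak4 was chosen by a measured value, its lower count in 6-month heterozygotes with regular activity than in wild type of that age, and the other 5 by their symbols. That difference, and every other Ak4 difference that uses libraries of those 2 groups, is therefore given as a description without a test.

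RNA of mouse cardiac myocytes was sequenced in 30 libraries, 5 in each of 6 groups. The groups were exercised Myh6-Cre:DspW/F mice and exercised wild type at 6 months, and both genotypes with regular activity at 6 and 3 months. Myh6-Cre:DspW/F mice, called heterozygotes here, carry a Cre recombinase driven by the Myh6 promoter in cardiac myocytes and are described by the series title as haplo-insufficient for desmoplakin, a desmosome protein that anchors the cytoskeleton. Whether the wild types also carry Cre is not stated, so an effect of Cre cannot be told apart from one of the Dsp allele. The label of the exercised groups, 3 months post endurance treadmill exercise, leaves it unclear whether the mice ran for 3 months or rested for 3 months after running. Nothing in the labels states that each replicate was a separate animal, so p-values measure the spread between these libraries, which may be partly technical, although every group holds libraries with and without the female RNA Xist and so cannot come from a single animal.

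In heart muscle, mitochondrial creatine kinase uses ATP made in the matrix to form phosphocreatine, and cytosolic creatine kinase turns it back into ATP beside the contractile proteins and ion pumps. Adenylate kinases interconvert ADP with ATP and AMP, and the AMP they make is a signal of energy shortage read by the kinase AMPK. Ckm encodes the muscle form of cytosolic creatine kinase, Ckb the brain form, which embryonic heart and many non-muscle tissues use, and Ckmt2 the sarcomeric mitochondrial form. Ak1 encodes the cytosolic adenylate kinase of muscle. Ak3 encodes a matrix enzyme that uses GTP, and Ak4 a matrix protein with low kinase activity that is known to be induced by hypoxia.

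All positions are on GRCm38 (mm10), from GENCODE M21. Ckm (ENSMUSG00000030399) lies at chr7:19404776-19422841 on the plus strand, Ckb (ENSMUSG00000001270) at chr12:111669361-111672338 on the minus strand, and Ckmt2 (ENSMUSG00000021622) at chr13:91853387-91876885 on the minus strand. Ak1 (ENSMUSG00000026817) lies at chr2:32621758-32635058 on the plus strand, Ak3 (ENSMUSG00000024782) at chr19:29020833-29047961 on the minus strand, and Ak4 (ENSMUSG00000028527) at chr4:101419277-101466995 on the plus strand. All 6 are protein-coding, and their merged exons span from 1486 bases in Ckmt2 to 4646 bases in Ak4.

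The sequence just upstream of RefSeq's start is shown for Ckm, Ckb, Ak3 and Ak4, the 4 genes whose levels the results turn on, so that the letters can be read beside their values. The windows come from RefSeq (GRCm38.p6), run 5′ to 3′ on the gene's strand from 250 bases before the start, and end before the first annotated exon base. GENCODE starts Ckm further upstream, so its window lies inside the annotated gene. RefSeq lists 1 start each for Ckm, Ckb and Ak3 but 4 for Ak4, whose window lies before the most upstream of them. They are chr7:19410844-19411024 plus for Ckm, chr12:111672339-111672588 minus for Ckb, chr19:29047962-29048211 minus for Ak3 and chr4:101419039-101419276 plus for Ak4, and capitals mark matches to 7 motifs searched on both strands.
Ckm: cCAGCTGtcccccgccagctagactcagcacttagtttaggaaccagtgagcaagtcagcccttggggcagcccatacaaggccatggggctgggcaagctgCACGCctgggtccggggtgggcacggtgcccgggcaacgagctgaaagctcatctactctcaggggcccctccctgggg
Ckb: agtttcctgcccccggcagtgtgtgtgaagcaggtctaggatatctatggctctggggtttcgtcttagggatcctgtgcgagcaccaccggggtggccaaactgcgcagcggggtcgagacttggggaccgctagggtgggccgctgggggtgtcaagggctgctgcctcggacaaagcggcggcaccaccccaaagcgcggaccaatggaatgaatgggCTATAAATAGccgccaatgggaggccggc
Ak3: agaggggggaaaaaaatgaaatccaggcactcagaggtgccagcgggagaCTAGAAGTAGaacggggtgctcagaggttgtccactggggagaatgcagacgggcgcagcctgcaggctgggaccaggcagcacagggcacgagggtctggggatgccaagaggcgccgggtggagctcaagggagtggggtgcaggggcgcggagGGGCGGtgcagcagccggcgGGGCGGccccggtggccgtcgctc
Ak4: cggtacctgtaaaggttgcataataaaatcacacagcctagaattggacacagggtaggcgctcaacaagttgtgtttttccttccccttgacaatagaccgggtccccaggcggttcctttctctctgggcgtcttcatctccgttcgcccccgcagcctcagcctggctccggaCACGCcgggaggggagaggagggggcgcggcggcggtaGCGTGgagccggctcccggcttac
The motifs were the E-box CANNTG, the pattern CTANNNNTA, the nuclear receptor half-site AAGGTCA and the hypoxia cores ACGTG and GCGTG. The GC box GGGCGG and the CRE TGACGTCA were the others. CTANNNNTA is looser than the A/T-rich MEF2-type core, since it allows any bases in its middle. An E-box with the letters CACGTG would also hold ACGTG. The capitals in Ckb and in the first stretch of Ak3 are each 2 overlapping matches to CTANNNNTA, 1 on each strand. The bases in the middle are all A or T in Ckb, but not in Ak3, so the Ak3 stretch is not A/T-rich. Of 32851 mouse promoter windows of 250 bases, 19.0% hold CTANNNNTA. The Ak3 window also has 2 matches to GGGCGG, which 32.7% of windows of that length hold. Ckm has 1 match to CANNTG (55.7% of windows of 181 bases) and 1 to GCGTG (20.1%), and Ak4 has 2 matches to GCGTG (26.9% of windows of 238 bases). These matches describe letters, not binding sites.

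Totals ran from 11232143 to 23710331 counts per library, and no pair of libraries was identical. Each of the 6 genes had at least 249 counts in every library, and all 6 passed the filter on low counts, which kept 15587 genes. Transcripts of the mitochondrial genome took a median of 28.4% of counts in exercised heterozygotes, 24.6% in exercised wild type, 18.8% in 6-month heterozygotes, 16.1% in 6-month wild type, 9.95% in 3-month heterozygotes and 11.8% in 3-month wild type. The table gives a value for 0 spike-in controls in the exercised libraries, for 11 to 18 in the 6-month regular-activity libraries and for 3 in the 3-month libraries, so a difference in handling between the 3 sets of libraries cannot be told apart from an effect of age or of exercise. The summed level of 10 ventricular myocyte markers was 58844 to 93950 CPM (counts scaled to a common library total), with none at 0 in any group. Dsp averaged 848 CPM in exercised heterozygotes against 1561 in exercised wild type, 626 in 6-month heterozygotes against 784 in wild type, and 765 in 3-month heterozygotes against 1079 in wild type. Of these 3 comparisons it passed the test, an adjusted p under 0.05 over all tested genes, in exercised mice (edgeR adjusted p = 0.0287), and a count over the whole gene does not check a deletion of part of it. Xist, the X-inactivation RNA of female cells, exceeded 50 CPM in 12 libraries and was at most 1.25 CPM in the others. The 12 were 1 exercised heterozygote (replicate 4), 1 exercised wild type (replicate 5), 2 in each 6-month regular-activity group and 3 in each 3-month group. In 3 of these 12, all wild type (replicate 4 at 3 months and replicates 2 and 5 at 6 months with regular activity), 4 Y-linked genes together also exceeded 2 CPM. In such bulk samples, fewer cells of a type and less RNA per cell cannot be told apart.

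Compared per length, as TPM, transcript counts per exon length scaled to one common total per library, the genes fell into 3 ranges in these cells. Ckmt2 was highest, with 2288 to 5285 TPM over the 30 libraries. Ckm had 479 to 1734 TPM and Ak1 369 to 1222 TPM, and these ranges overlap. Ak3 had 50.8 to 104 TPM, Ckb 11.9 to 70.7 TPM and Ak4 15.8 to 50.7 TPM. The lowest values of Ckm, Ak1, Ckb and Ak4 all came from exercised wild type 1. In that library transcripts of the mitochondrial genome, which enter the TPM total, took 46.9% of counts. Ckb was a small part of the cytosolic creatine kinase RNA, from 1.34% to 4.61% of Ckm and Ckb together.

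**Figure D1:**
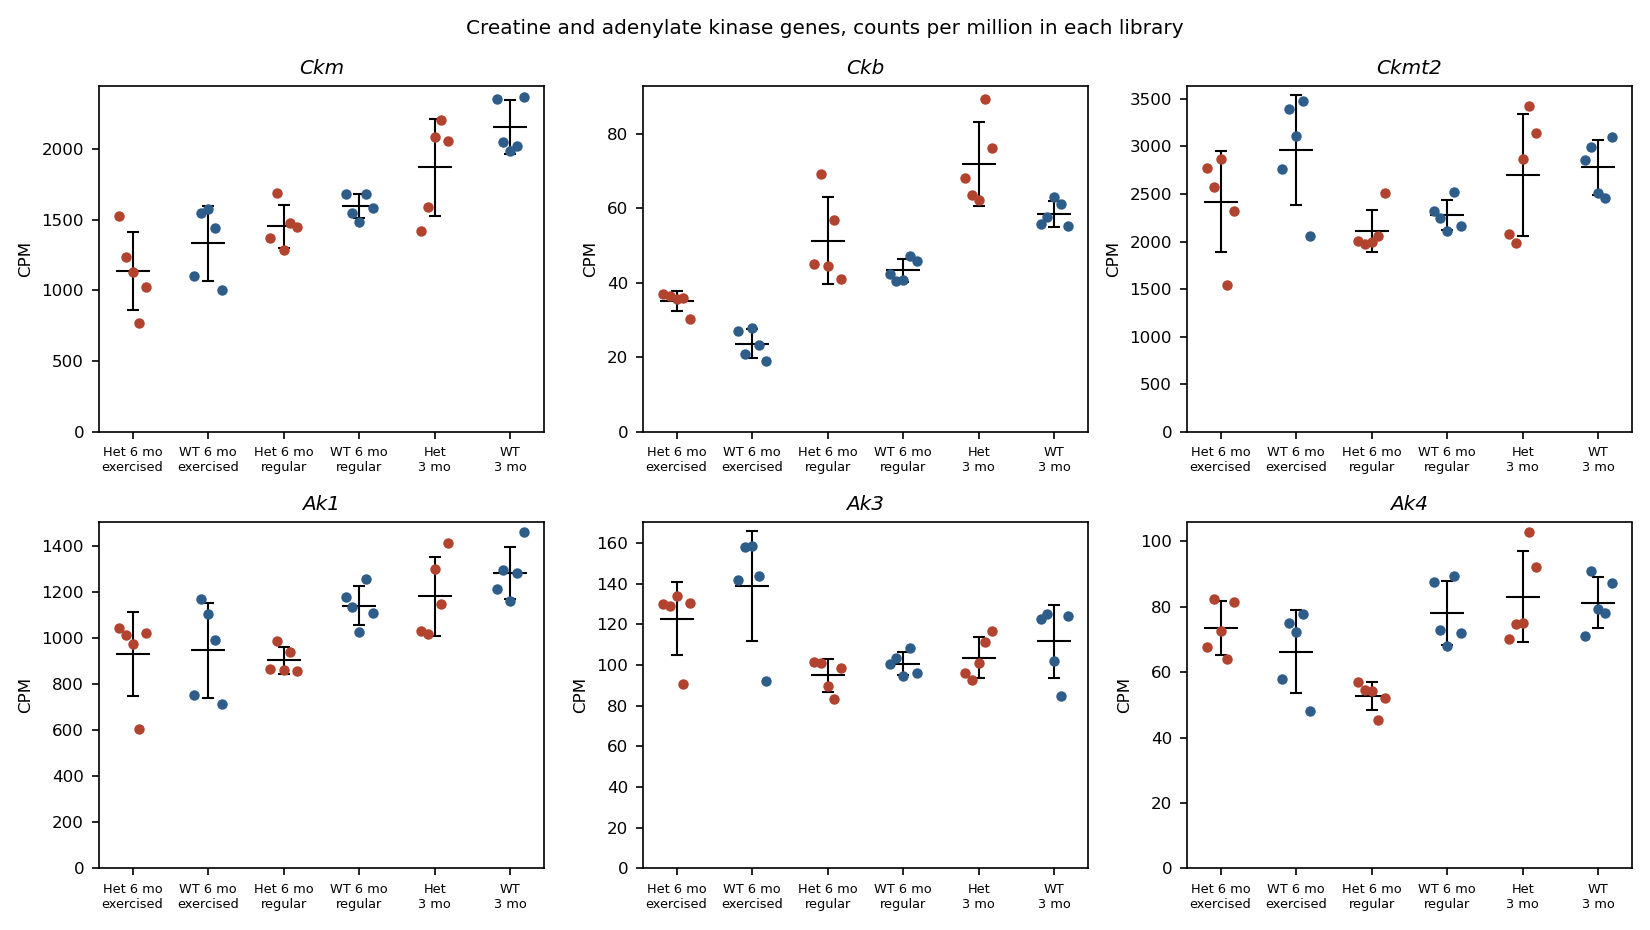
CPM of the 6 genes in each library (points, red for heterozygotes and blue for wild type) with the group mean and SD (bar and whiskers), 5 libraries per group, vertical axes from 0. Ckb lies at 19.0 to 27.9 CPM in exercised wild type, below every other library, and Ak4 lies at 45.4 to 56.9 CPM in 6-month heterozygotes with regular activity.

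Ckb, the brain form, differed most between groups. In exercised mice it had 37.1, 36.4, 35.7, 36.0 and 30.3 CPM in heterozygotes (replicates 1 to 5), against 27.2, 21.0, 27.9, 23.2 and 19.0 CPM in wild type. At 6 months with regular activity it had 45.2, 69.2, 44.6, 56.9 and 41.0 CPM in heterozygotes, against 42.4, 40.5, 40.8, 47.3 and 45.8 CPM in wild type. At 3 months it had 68.3, 63.6, 62.2, 89.4 and 76.3 CPM in heterozygotes, against 55.7, 57.7, 63.1, 61.2 and 55.2 CPM in wild type. By group mean the order was 3-month heterozygotes, 3-month wild type, 6-month heterozygotes, 6-month wild type, exercised heterozygotes and exercised wild type. The 4 groups without exercise each overlap with the next of them, and both exercised groups stand apart from the groups beside them in this order.

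Ckb fell with exercise in both genotypes. In heterozygotes it averaged 35.1 ± 2.74 CPM with exercise and 51.4 ± 11.6 CPM with regular activity (SD, n = 5 each, log2 fold change -0.55, SE 0.125, edgeR adjusted p = 0.00434). In wild type it averaged 23.7 ± 3.85 CPM with exercise and 43.3 ± 3.06 CPM with regular activity (log2 fold change -0.87, SE 0.126, edgeR adjusted p = 3.13e-05). The groups did not overlap in either genotype, and both calls held when any 1 library was left out. The Xist-expressing libraries of regular-activity heterozygotes at 6 months, replicates 2 and 4, had the highest Ckb levels of that group (69.2 and 56.9 CPM). At 3 months it was the other way, with Xist-expressing heterozygotes 1, 2 and 3 at 68.3, 63.6 and 62.2 CPM, the lowest of their group. Of the 5 genes tested, exercise called 1 in heterozygotes, Ckb, where 8.82% of all tested genes were called, and 2 in wild type, Ckb and Ak3, where 9.69% were called. In heterozygotes several marker lists of other cells lay lower with exercise as well, with 0 of 7 tested smooth muscle and pericyte markers above 0 (median log2 value -0.61), 0 of 10 endothelial (-0.45), 0 of 9 macrophage (-0.51) and 2 of 10 fibroblast markers (-0.52). In wild type the medians were -0.05, 0.32, -0.08 and -0.29 for these lists, and 0 of these markers were called in either genotype. Their part in the Ckb values was not tested. The interaction of genotype with exercise for Ckb, 0.32 on the log2 scale (SE 0.177, 95% interval -0.03 to 0.67, edgeR adjusted p = 0.999), did not pass the test.

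In exercised mice Ckb was also higher in heterozygotes than in wild type, and the groups did not overlap. The means were 35.1 ± 2.74 CPM and 23.7 ± 3.85 CPM (SD, n = 5 each), a 1.48-fold difference (log2 fold change 0.57, SE 0.126, edgeR adjusted p = 0.0302). It was the 1 gene called of 6, where 0.404% of all tested genes were called. The call was lost without exercised heterozygote 1 (edgeR adjusted p = 0.0743), 2 (0.0887), 3 (0.0755) or 4 (0.0880), without exercised wild type 2 (0.143), 4 (0.107) or 5 (0.0933), and in a fit of both exercised groups alone (0.131). With any 1 library left out, the log2 value lay between 0.49 and 0.62. At 6 months with regular activity the value was 0.25 (SE 0.124, edgeR adjusted p = 0.589) and at 3 months 0.30 (SE 0.124, edgeR adjusted p = 0.357), neither of which passed the test.

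Beside these Ckb values, markers of other cells varied as well. Neuronal and glial markers, a class in which Ckb is abundant, summed to 2.42 to 6.56 CPM in all libraries, with up to 2 of 7 at 0 in a group. The sums of 8 smooth muscle and pericyte markers and of 10 endothelial markers overlapped between genotypes in exercised mice, with sums of 349 to 841 CPM in heterozygotes and 290.1 to 1109.8 CPM in wild type for the smooth muscle list, and 259 to 561 CPM and 324 to 1384 CPM for the endothelial list. Log2 values were below 0 for 8 of 10 endothelial markers (median -0.36) and 4 of 7 tested smooth muscle and pericyte markers (-0.19). So were 7 of 10 ventricular myocyte markers (-0.20), with 0 called in each list. In that comparison 10 of 10 fibroblast markers (median log2 value 0.61), 9 of 9 tested macrophage markers (0.63), 6 of 6 atrial markers (0.46) and 4 of 4 tested skeletal muscle markers (0.79) had values above 0, and 5 of 5 tested adipocyte (-3.44) and 5 of 5 tested erythroid markers (-2.08) below 0, with 0 called in each of these lists. Their sums overlapped between the genotypes, with 194 to 1129 CPM in heterozygotes and 146 to 595 CPM in wild type for fibroblasts, and 17.6 to 133 CPM and 12.9 to 59.4 CPM for macrophages. The part of these cells in the Ckb differences was not tested.

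Ckb fell with age in heterozygotes (log2 fold change -0.49, SE 0.124, edgeR adjusted p = 0.0254), with means of 51.4 ± 11.6 CPM at 6 months and 72.0 ± 11.2 CPM at 3 months (SD, n = 5 each). It was the 1 of 5 tested genes called, where 3.43% of all tested genes were called. The groups overlap, since 6-month heterozygote 2 had 69.2 CPM. The call was lost without 6-month heterozygote 1 (edgeR adjusted p = 0.0696), 3 (0.106) or 5 (0.110), without 3-month heterozygote 4 (0.0910) or 5 (0.0540), without the filter on low counts (0.0690) and in a fit of both groups alone (0.0914). In wild type Ckb was 43.3 ± 3.06 CPM at 6 months and 58.6 ± 3.45 CPM at 3 months, with no overlap (log2 fold change -0.44, SE 0.124, edgeR adjusted p = 0.0899). The interaction of genotype with age was -0.05 (SE 0.175, edgeR adjusted p = 0.964). In the same comparison of heterozygotes, 4 of 10 fibroblast and 4 of 9 tested macrophage markers rose with age, with sums of 511 to 844 CPM at 6 months and 224 to 349 CPM at 3 months for fibroblasts. So did 2 of 10 endothelial markers, with sums of 441 to 916 CPM at 6 months and 299 to 339 CPM at 3 months. Of 7 tested smooth muscle and pericyte markers 1 rose, as did 1 of 5 tested adipocyte markers. The other 4 adipocyte values lay below 0 with 0 called (median log2 value of the list -2.18). The part of these cells in the Ckb value was not tested.

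Ckm, the muscle form, had its lowest levels in exercised heterozygotes. It had 1523, 1233, 1130.5, 771 and 1021 CPM in exercised heterozygotes, against 1099, 1549, 1575, 1439 and 1005 CPM in exercised wild type. At 6 months with regular activity it had 1370.1, 1687, 1284, 1478 and 1449 CPM in heterozygotes, against 1683, 1548, 1485, 1683 and 1581 CPM in wild type. At 3 months it had 1423, 1586, 2081, 2205 and 2056 CPM in heterozygotes, against 2354, 2052, 1983, 2020.4 and 2365 CPM in wild type. The order of the means ran from 3-month wild type through 3-month heterozygotes, 6-month wild type, 6-month heterozygotes and exercised wild type to exercised heterozygotes, and each group overlaps with the next.

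Ckm fell in exercised heterozygotes against regular-activity wild type, a comparison that spans genotype and exercise together. The means were 1136 ± 276 CPM and 1596 ± 86.5 CPM (SD, n = 5 each, log2 fold change -0.49, SE 0.144, edgeR adjusted p = 0.0201), with 9 of 10 libraries on their group's side of the midpoint. It was the 1 of 5 tested genes called, where 13.1% of all tested genes were called. Without exercised heterozygote 4, the lowest library, the log2 value was -0.38 and the call was lost (edgeR adjusted p = 0.0687). It was also lost without exercised heterozygote 5 (0.0527), without the 3 wild-type libraries that hold both Xist and Y-linked reads (0.0666), and in a fit of both groups alone (0.0505). With a term for Xist-expressing libraries it was -0.55 (edgeR adjusted p = 0.00552). In the same comparison 2 of 10 ventricular myocyte markers rose and 3 fell, with sums of 60153 to 82012 CPM in exercised heterozygotes and 63039 to 80046 CPM in regular-activity wild type. There 9 of 9 tested macrophage markers lay above 0 with 1 called, as did 4 of 4 tested skeletal muscle markers with 1 called, and their part in the Ckm value was not tested. The separate steps did not pass the test: exercise gave -0.36 in heterozygotes (SE 0.144, edgeR adjusted p = 0.124; 0.0211 without exercised heterozygote 1 and 0.0446 with a term for Xist-expressing libraries) and -0.26 in wild type (SE 0.144, edgeR adjusted p = 0.294).

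With age, Ckm was 1596 ± 86.5 CPM at 6 months and 2155 ± 188 CPM at 3 months in wild type, with no overlap (log2 fold change -0.43, SE 0.144, edgeR adjusted p = 0.153). In heterozygotes it was 1453 ± 151 CPM at 6 months and 1870.3 ± 344 CPM at 3 months (log2 fold change -0.36, SE 0.144, edgeR adjusted p = 0.147). Small RNA genes took 5.29% and 5.27% of counts in 3-month heterozygotes 1 and 2, against 3.28% to 4.62% in the other 8 libraries of 3 months. Without these 2, which also have the lowest Ckm levels of their group, so that leaving them out could only enlarge the difference, the log2 value in heterozygotes was -0.53 (edgeR adjusted p = 0.0390). In wild type 0 of the 5 tested genes were called with age by edgeR, where 0.860% of all tested genes were called. There, 2 of the 5, Ckm and Ckb, had an unadjusted edgeR p under 0.05, as had 1908 of all 15587 tested genes. DESeq2 called 1 (Ckb, adjusted p = 0.0400), where it called 328 genes in all. Limma-voom called 0 of the 5, where it called 151 genes in all.

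Ckmt2, the mitochondrial form, was not called in any comparison by edgeR on all libraries. It ranged from 1547 to 2870.4 CPM in exercised heterozygotes and from 2061 to 3478 CPM in exercised wild type. With regular activity at 6 months it ranged from 1979 to 2510.5 CPM in heterozygotes and from 2117 to 2519 CPM in wild type, and at 3 months from 1990.3 to 3428 CPM in heterozygotes and from 2455 to 3103 CPM in wild type. Neighbouring groups overlap throughout. Exercise gave a log2 value of 0.38 in wild type (SE 0.153, edgeR adjusted p = 0.119), which limma-voom called (adjusted p = 0.0140) and edgeR called without exercised wild type 5 (adjusted p = 0.0395), the lowest library. In heterozygotes exercise gave 0.20 (SE 0.153, edgeR adjusted p = 0.508). With age the Ckmt2 value was -0.35 in heterozygotes (SE 0.153, edgeR adjusted p = 0.191) and -0.29 in wild type (SE 0.153, edgeR adjusted p = 0.449). Here too 3-month heterozygotes 1 and 2 were the lowest of their group (2075 and 1990 CPM).

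Set against the cytosolic forms per length, Ckmt2 stood higher in exercised mice. The ratio of Ckmt2 to Ckm and Ckb together was 4.07 ± 0.522 in exercised heterozygotes and 2.77 ± 0.403 in regular-activity heterozygotes (SD, n = 5 each). It was 4.29 ± 0.436 in exercised wild type and 2.72 ± 0.0983 in regular-activity wild type. Exercised libraries ranged from 3.48 to 4.82 and regular-activity 6-month libraries from 2.21 to 3.30, so that these sets did not overlap. At 3 months the ratio was 2.70 ± 0.226 in heterozygotes and 2.47 ± 0.193 in wild type. The ratio was built from the genes described here and was not tested.

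**Figure D2:**
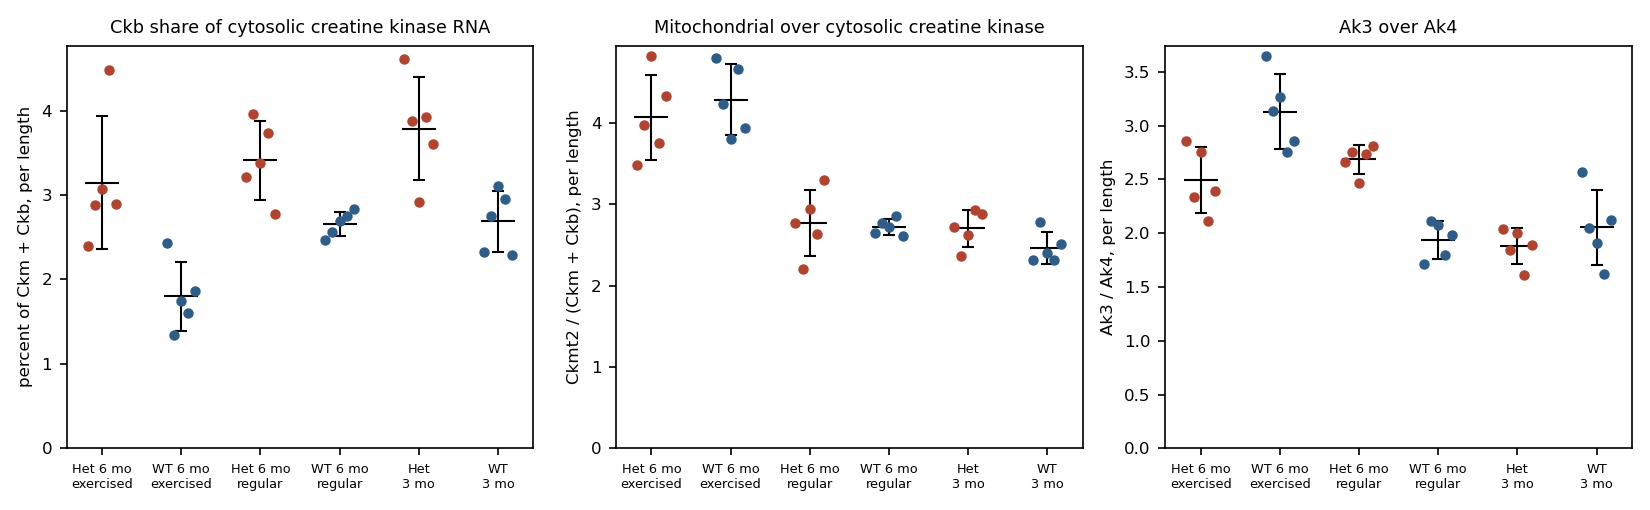
Ratios of TPM by library, with group mean and SD: Ckb as a percentage of Ckm and Ckb, Ckmt2 over Ckm and Ckb, and Ak3 over Ak4 (red heterozygotes, blue wild type, 5 libraries per group, axes from 0). The middle panel places exercised libraries at 3.48 to 4.82 and 6-month regular-activity libraries at 2.21 to 3.30.

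The share of Ckb in cytosolic creatine kinase RNA, also a description, was higher in heterozygotes than in wild type by mean at each age and activity. It was 3.15% ± 0.791 in heterozygotes and 1.80% ± 0.405 in wild type after exercise (SD, n = 5 each). It was 3.41% ± 0.463 and 2.66% ± 0.144 at 6 months with regular activity, and 3.79% ± 0.609 and 2.69% ± 0.365 at 3 months, with heterozygotes first. The ranges overlap in each pair: exercised heterozygotes reached down to 2.39% and exercised wild type up to 2.43%, 6-month heterozygotes down to 2.77% and wild type up to 2.83%, and 3-month heterozygotes down to 2.92% and wild type up to 3.10%.

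Among the adenylate kinases, Ak3 rose with exercise in wild type. It had 129.8, 129, 134, 90.9 and 131 CPM in exercised heterozygotes, against 102, 101, 89.9, 83.4 and 98.5 CPM in regular-activity heterozygotes. It had 142, 158, 158, 144 and 92.3 CPM in exercised wild type, against 101, 104, 94.7, 108 and 95.9 CPM in regular-activity wild type. At 3 months it ranged from 92.8 to 117 CPM in heterozygotes and from 84.8 to 125 CPM in wild type. In both genotypes 4 of 5 exercised libraries lie above every regular-activity library, and the remaining one, heterozygote 4 or wild type 5, lies within or below their range and is the Xist-expressing library of its group. By group mean Ak3 was highest in exercised wild type and then exercised heterozygotes, and neighbours in that order overlap.

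The rise of Ak3 in wild type was 1.38-fold, to 139 ± 27.1 CPM with exercise, against 101 ± 5.56 CPM with regular activity (SD, n = 5 each, log2 fold change 0.46, SE 0.126, edgeR adjusted p = 0.0150). It kept its call when any 1 library was left out (highest adjusted p 0.0495, without exercised wild type 3) and lost it without the wild-type libraries that hold Xist and Y-linked reads (edgeR adjusted p = 0.0712). With a term for Xist-expressing libraries, added after seeing the data, it was 0.40 (edgeR adjusted p = 0.0144). In heterozygotes the values were 123 ± 18.0 CPM with exercise and 94.9 ± 7.93 CPM with regular activity (log2 fold change 0.37, SE 0.126, edgeR adjusted p = 0.0581). That difference passed without exercised heterozygote 4 (log2 fold change 0.46, edgeR adjusted p = 0.0137), in DESeq2 (adjusted p = 0.0469) and in limma-voom (adjusted p = 0.00218). Its interaction with genotype was -0.09 (SE 0.177, 95% interval -0.44 to 0.26, edgeR adjusted p = 0.999).

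Ak3 shares 430 exonic bases with Cdc37l1 on the opposite strand, and the strand setting of the counting is not given in the sources used here, so its counts are uncertain. Cdc37l1 itself averaged 149 ± 18.6 CPM in exercised heterozygotes and 117 ± 7.38 CPM in regular-activity heterozygotes (SD, n = 5 each, log2 fold change 0.35, SE 0.120, edgeR adjusted p = 0.0652). In wild type it averaged 132 ± 15.0 CPM with exercise and 124 ± 13.8 CPM with regular activity (log2 fold change 0.09, SE 0.120, edgeR adjusted p = 0.735). Whether Cdc37l1 reads entered the Ak3 counts was not tested.

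Ak4 was low in 1 group. It had 56.9, 54.6, 54.3, 45.4 and 52.1 CPM in 6-month heterozygotes with regular activity, against 87.5, 72.9, 67.9, 89.5 and 72.0 CPM in wild type of that age. In exercised mice it had 67.7, 82.4, 72.4, 63.9 and 81.4 CPM in heterozygotes, against 57.9, 74.9, 72.4, 77.8 and 48.1 CPM in wild type. At 3 months it had 70.0, 74.9, 75.1, 103 and 92.1 CPM in heterozygotes, against 71.0, 90.8, 79.4, 78.1 and 87.2 CPM in wild type. The 5 regular-activity heterozygotes of 6 months lie below every other library except exercised wild type 5, whose 48.1 CPM falls within their range. The difference that chose the gene was 1.48-fold (means 52.7 ± 4.39 CPM in heterozygotes and 78.0 ± 9.80 CPM in wild type, SD, n = 5 each, log2 fold change -0.57, SE 0.123). The other 5 groups overlap each with the next in the order of their means, from 83.0 CPM in 3-month heterozygotes to 66.2 CPM in exercised wild type.

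The comparisons that share the 6-month regular-activity libraries with that choice give Ak4 values as a description only. Ak4 averaged 73.6 ± 8.20 CPM in exercised heterozygotes and 52.7 ± 4.39 CPM in regular-activity heterozygotes, with no overlap (SD, n = 5 each, log2 fold change 0.48, SE 0.124). It averaged 66.2 ± 12.7 CPM in exercised wild type and 78.0 ± 9.80 CPM in regular-activity wild type (log2 fold change -0.23, SE 0.123). With age it averaged 52.7 ± 4.39 CPM at 6 months and 83.0 ± 13.9 CPM at 3 months in heterozygotes, with no overlap (log2 fold change -0.66, SE 0.124), and the log2 value in wild type was -0.06 (SE 0.123).

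The comparisons of Ak4 that use no library of that choice did not pass the test. In exercised mice heterozygotes and wild type averaged 73.6 ± 8.20 and 66.2 ± 12.7 CPM (SD, n = 5 each, log2 fold change 0.15, SE 0.123, 95% interval -0.09 to 0.39, edgeR adjusted p = 0.783). At 3 months they averaged 83.0 ± 13.9 and 81.3 ± 7.85 CPM (log2 fold change 0.03, SE 0.123, 95% interval -0.21 to 0.27, edgeR adjusted p = 0.955).

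The ratio of Ak3 to Ak4 per length separates the groups differently. It was 2.49 ± 0.307 in exercised heterozygotes, 3.13 ± 0.353 in exercised wild type and 2.69 ± 0.135 in regular-activity heterozygotes of 6 months (SD, n = 5 each). It was 1.94 ± 0.174 in regular-activity wild type, 1.88 ± 0.169 in 3-month heterozygotes and 2.05 ± 0.347 in 3-month wild type. In exercised and regular-activity wild type the ranges were 2.75 to 3.64 and 1.71 to 2.12, with no overlap. The ratio was not tested, since the choice of Ak4 enters it.

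Sums of fibroblast and macrophage markers were higher in the group where Ak4 was low. The 10 fibroblast markers summed to 511 to 844 CPM in 6-month heterozygotes, against 342 to 433 CPM in wild type of that age, and the macrophage markers to 53.5 to 107 CPM, against 18.1 to 34.5 CPM. None of either list was at 0 in any group, all 10 fibroblast and all 9 tested macrophage markers had positive log2 values, and none passed the test. Values were also positive for 10 of 10 endothelial markers (median log2 value 0.38) and 7 of 7 tested smooth muscle and pericyte markers (0.50), with 0 called in either list. Ventricular myocyte markers summed to 58844 to 75988 CPM in these heterozygotes and 63039 to 80046 CPM in wild type. Of these 10 markers 9 had log2 values below 0 (median -0.23), with 0 called. The part of these cells in the Ak4 values was not tested.

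Ak1, the cytosolic form, did not pass the test in any comparison. It ranged from 859 to 989 CPM in 6-month heterozygotes with regular activity and from 1028 to 1258 CPM in wild type, with no overlap (means 904 ± 58.1 and 1142 ± 85.2 CPM, SD, n = 5 each, log2 fold change -0.34, SE 0.134, edgeR adjusted p = 0.435). It ranged from 606 to 1043 CPM in exercised heterozygotes and from 713 to 1168 CPM in exercised wild type. At 3 months it ranged from 1017 to 1413 CPM in heterozygotes and from 1162 to 1460.3 CPM in wild type. The order of the means, from 1283 CPM in 3-month wild type to 904 CPM in 6-month heterozygotes, has no neighbours without overlap. With age in heterozygotes the log2 value was -0.39 (SE 0.134, edgeR adjusted p = 0.0961), again with no overlap, and without 3-month heterozygotes 1 and 2, the lowest of their group in Ak1 too, it was -0.50 (edgeR adjusted p = 0.0470).

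By genotype with regular activity, 0 of 5 tested genes were called at 6 months by edgeR, where 0.135% of all tested genes were called and Ak4 is left aside. There, 1 of the 5 (Ak1) had an unadjusted edgeR p under 0.05, as had 1370 of all 15587 tested genes. DESeq2 and limma-voom called 0 of the 5, where they called 56 and 476 genes in all. At 3 months 0 of 6 were called by edgeR, where 0.192% were called. Of these 6, 1 (Ckb) had an unadjusted edgeR p under 0.05, as had 1722 of all tested genes. DESeq2 and limma-voom called 0 of the 6, where they called 145 and 18 genes in all. The median log2 value was -0.11 over the 5 genes at 6 months and -0.08 over the 6 genes at 3 months, beside -0.0035 and -0.0019 over all tested genes. The interaction of genotype with exercise called 0 of 5 (0.0128% of all genes) and that of genotype with age 0 of 5 (0% of all genes). None of the 5 had an unadjusted edgeR p under 0.05 in either, where 765 and 1253 of all tested genes had. DESeq2 and limma-voom called 0 of these 5 in both.

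**Figure D3:**
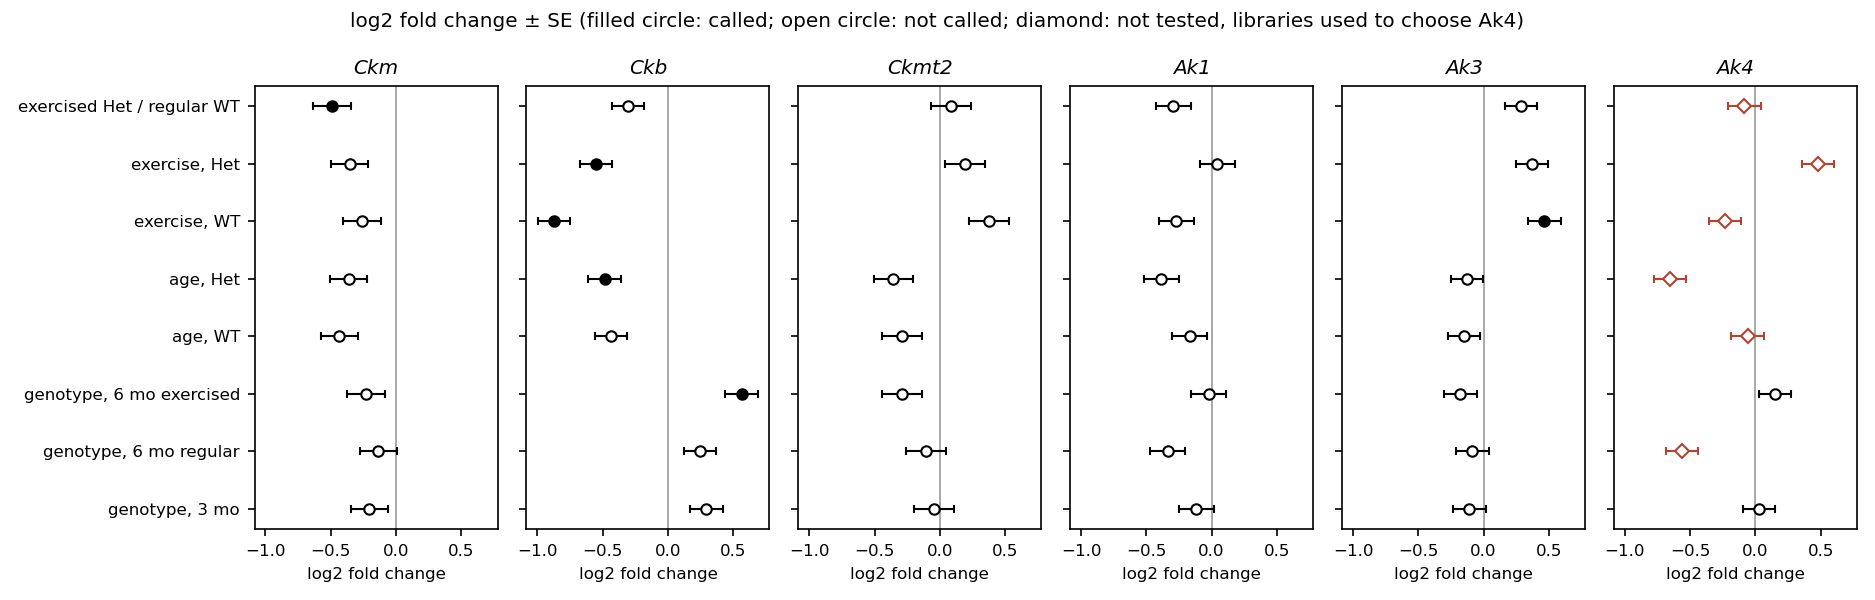
Log2 fold change with SE of each gene in 8 comparisons, the group named first over its counterpart, each from 5 libraries per group (filled circles passed an edgeR adjusted p of 0.05, open circles did not, diamonds were not tested because the libraries served to choose Ak4). Ckb has filled points at -0.55 and -0.87 with exercise, -0.49 with age in heterozygotes and 0.57 by genotype after exercise.

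With Ak4 left aside, since the 6-month libraries chose it, the log2 values with age were below 0 for 5 of 5 genes in both genotypes. The median was -0.36 in heterozygotes, beside -0.016 over all tested genes, and -0.29 in wild type, beside 0.012. Ventricular myocyte markers also lay lower with age. In heterozygotes 10 of 10 were below 0 (median -0.30, 1 called, where 3.43% of all tested genes were called). In wild type 8 of 10 were below 0 (median -0.21, 0 called, where 0.860% were called). What these markers share with the 5 genes was not tested. With exercise the values of the 5 genes were mixed. In heterozygotes 3 lay above and 2 below 0 (median 0.04, beside -0.0037), and in wild type 2 above and 3 below (median -0.26, beside 0.0059). Ckb and Ckm lay below 0 and Ckmt2 and Ak3 above 0 in both genotypes, of which Ckb in both and Ak3 in wild type passed the test. These comparisons share libraries, so their counts are not independent.

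Among 3 genes that supply creatine, 1 fell with exercise in each genotype, where 8.82% of all tested genes were called in heterozygotes and 9.69% in wild type. Slc6a8, the transporter that brings creatine into the myocyte, fell to 201 ± 20.9 CPM in exercised wild type, against 269 ± 31.4 CPM in regular-activity wild type (SD, n = 5 each, log2 fold change -0.42, SE 0.112, edgeR adjusted p = 0.0128). In heterozygotes its log2 value was -0.10 (SE 0.111, edgeR adjusted p = 0.688). The interaction for Slc6a8 was 0.32 (SE 0.158, edgeR adjusted p = 0.999). Gamt, which makes creatine from guanidinoacetate, fell to 3.52 ± 1.34 CPM in exercised heterozygotes, against 7.21 ± 1.48 CPM in regular-activity heterozygotes (log2 fold change -1.03, SE 0.313, edgeR adjusted p = 0.0332). In wild type the Gamt value was -0.55 on the log2 scale (SE 0.310, edgeR adjusted p = 0.307), and its interaction was -0.49 (SE 0.439, edgeR adjusted p = 0.999). The list's median was -0.34 in heterozygotes and -0.42 in wild type, beside -0.0037 and 0.0059 over all tested genes.

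Of 6 genes for ADP, ATP and phosphate transport across the mitochondrial membranes, 5 had log2 values below 0 with exercise in either genotype, and 1 was called in each (8.82% of all tested genes in heterozygotes, 9.69% in wild type). Slc25a5, an ADP/ATP carrier, fell in heterozygotes (170 ± 11.9 CPM with exercise and 232 ± 28.2 CPM without, SD, n = 5 each, log2 fold change -0.45, SE 0.144, edgeR adjusted p = 0.0449). Its value in wild type was -0.28 (SE 0.143, edgeR adjusted p = 0.247). Slc25a3, the phosphate carrier, fell in wild type (1433 ± 128 CPM with exercise and 2009 ± 46.9 CPM without, log2 fold change -0.49, SE 0.116, edgeR adjusted p = 0.00592), as it did with age in heterozygotes (1638 ± 137 CPM at 6 months and 2354 ± 401 CPM at 3 months, log2 fold change -0.52, SE 0.116, edgeR adjusted p = 0.00871). In heterozygotes its value with exercise was -0.33 (SE 0.115, edgeR adjusted p = 0.0703). The interactions of genotype with exercise were -0.17 for Slc25a5 and 0.16 for Slc25a3 (edgeR adjusted p = 0.999 for both). In exercised heterozygotes against regular-activity wild type, Slc25a3 (-0.62 on the log2 scale, SE 0.116, edgeR adjusted p = 0.000391) and Slc25a4, the heart ADP/ATP carrier (-0.44, SE 0.119, edgeR adjusted p = 0.0125), fell. The median of the 6 genes with exercise was -0.18 in heterozygotes and -0.21 in wild type, beside the medians of all genes given above.

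Among 7 AMPK subunits and their upstream kinase Stk11, both catalytic subunits rose with exercise in both genotypes. Prkaa2 averaged 202 ± 21.7 CPM in exercised heterozygotes and 135 ± 16.7 CPM in regular-activity heterozygotes (SD, n = 5 each, 0.58 on the log2 scale, SE 0.103, edgeR adjusted p = 0.000376), and 202 ± 22.2 CPM in exercised wild type and 156 ± 2.72 CPM in regular-activity wild type (0.38, SE 0.103, edgeR adjusted p = 0.0160). Prkaa1 had log2 values of 0.45 in heterozygotes (SE 0.116, edgeR adjusted p = 0.0115) and 0.40 in wild type (SE 0.116, edgeR adjusted p = 0.0225). Prkag1, a regulatory subunit that binds AMP, fell in wild type (-0.63 on the log2 scale, SE 0.112, edgeR adjusted p = 0.000375), and its value in heterozygotes was -0.34 (SE 0.112, edgeR adjusted p = 0.0554). So 2 of the 8 rose and 0 fell in heterozygotes, and 2 rose and 1 fell in wild type, where 8.82% and 9.69% of all tested genes were called. The list medians were 0.20 in heterozygotes and -0.03 in wild type, beside -0.0037 and 0.0059 over all tested genes.

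**Figure D4:**
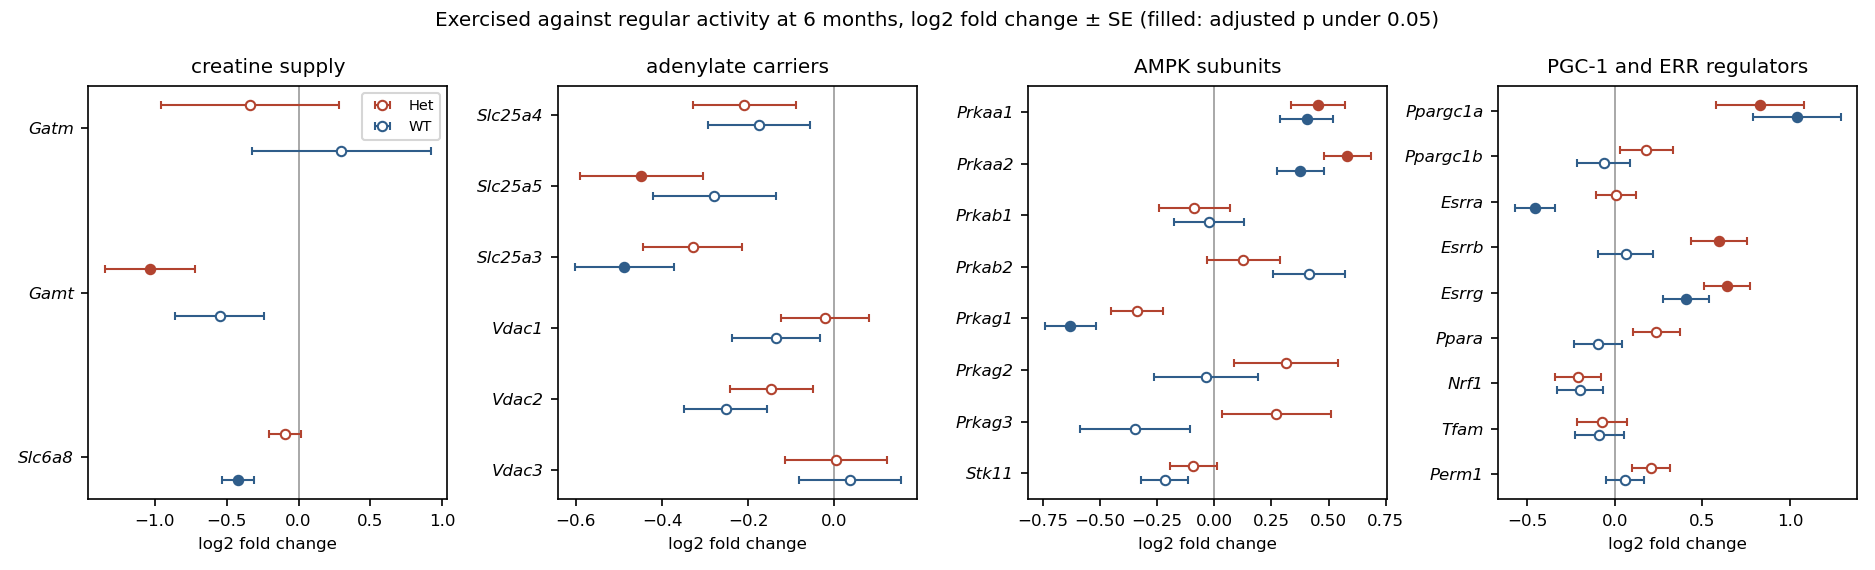
Log2 fold change with SE, exercised over regular activity at 6 months, for every tested gene of 4 lists (red heterozygotes, blue wild type, 5 libraries per group; filled points passed an edgeR adjusted p of 0.05). Prkaa1 and Prkaa2 are filled at 0.38 to 0.58 in both genotypes, and Slc6a8 is filled at -0.42 in wild type.

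Of 9 regulators of mitochondrial energy genes, 3 rose and 0 fell with exercise in heterozygotes, where 8.82% of all tested genes were called, and 2 rose and 1 fell in wild type, where 9.69% were called. Ppargc1a, the coactivator PGC-1alpha, averaged 219 ± 72.6 CPM in exercised heterozygotes and 123 ± 9.90 CPM in regular-activity heterozygotes (SD, n = 5 each, 0.83 on the log2 scale, SE 0.250, edgeR adjusted p = 0.0360), and 243 ± 117 CPM in exercised wild type and 118 ± 37.4 CPM in regular-activity wild type (1.04, SE 0.251, edgeR adjusted p = 0.00827). The nuclear receptor gene Esrrg rose in heterozygotes (0.64, SE 0.132, edgeR adjusted p = 0.00179) and wild type (0.41, SE 0.131, edgeR adjusted p = 0.0429), and Esrrb rose in heterozygotes (0.59, SE 0.159, edgeR adjusted p = 0.0152). Esrra fell in wild type with exercise (-0.46, SE 0.115, edgeR adjusted p = 0.00888) and in heterozygotes with age (-0.61, SE 0.115, edgeR adjusted p = 0.00170). The list medians with exercise were 0.20 in heterozygotes and -0.06 in wild type, beside -0.0037 and 0.0059 over all tested genes.

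Of 18 hypoxia-induced genes, the class Ak4 is known to belong to, 1 fell and 0 rose in 6-month heterozygotes with regular activity against wild type, where 0.135% of all tested genes were called, and the list's median was -0.12, beside -0.0035. The gene was Pdk1, which restrains pyruvate dehydrogenase (251 ± 30.3 CPM in heterozygotes and 375 ± 47.8 CPM in wild type, SD, n = 5 each, log2 fold change -0.58, SE 0.116, edgeR adjusted p = 0.0244). This comparison uses the same libraries that chose Ak4, and the list was drawn up with earlier results of these data known. The list's values there are therefore no separate evidence on Ak4. With exercise in heterozygotes 1 rose, Hk2 (0.39, SE 0.120, edgeR adjusted p = 0.0370), and 0 fell, where 8.82% of all tested genes were called. The list's median there was -0.08, with 10 of 18 values below 0. In wild type 0 of the list rose and 1 fell with exercise, where 9.69% were called (median -0.05). With age in heterozygotes 0 rose and 3 fell, where 3.43% were called (median -0.10). Of 12 AMP and purine enzymes 11 were tested, and of 6 nucleoside diphosphate kinases 5. With exercise 0 of both lists were called in heterozygotes by edgeR, and 1 fell in wild type, Nme6, a nucleoside diphosphate kinase (-0.82, SE 0.235, edgeR adjusted p = 0.0214), where 8.82% and 9.69% of all tested genes were called. With age in heterozygotes Adsl, an enzyme of purine synthesis, fell (-0.41, SE 0.102, edgeR adjusted p = 0.0234), and so did Nme2 (-1.78, SE 0.249, edgeR adjusted p = 3.22e-05). The annotation places Nme2 inside an overlapping read-through gene on the same strand, Gm20390, and Nme1 is a close relative, so how reads were divided among them, and with that the Nme2 value, is uncertain.

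Finally, the genes whose pattern over the 30 libraries was most like each kinase gene were found by the root mean square difference of centred log2 CPM among 13006 genes. For Ckb these were Fbxl22 (0.26), Timm13 (0.29) and Fbxl6 (0.30), where Ckb itself varied by 0.55 around its mean on the same scale. For Ckm they were Slc25a3 (0.13), Coq9 (0.14) and Chchd2 (0.14), with 0.38 for Ckm itself. For Ckmt2 they were Pgam2 (0.15), Sod2 (0.16) and Prdx5 (0.16), with 0.29. For Ak1 they were Fastk (0.11), Poldip2 (0.13) and Slc25a11 (0.14), with 0.28, for Ak3 Opa1 (0.13), Dlat (0.14) and Coq5 (0.14), with 0.26, and for Ak4 Pkm (0.18), Cog6 (0.18) and Pfkl (0.19), with 0.29. These libraries share their sets of age and exercise, so likeness includes what separates the sets.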

How the data were processed

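Per the labels' protocols, cardiac myocyte RNA came from the miRNAeasy kit, and the strand-specific TruSeq libraries were depleted of ribosomal RNA. The tools named, per the submitters' processing notes, are featureCounts, HISAT2 and Trim Galore, with the mm10 build; the strand setting and annotation release are not given in the sources used here. The authors deposited raw counts per gene for all 30 libraries in 1 table, with 23 spike-in entries, which were left out. Counts of overlapping genes and near copies may be shared: Ckm and Ckmt2 overlap antisense genes with 839 and 1817 counts in all, and pseudogenes near-identical to Ak4 and Ckb held 18 and 62 counts.

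Genes passing filterByExpr were scaled with TMM and tested with the robust quasi-likelihood test of edgeR 4.0.16 in R 4.3.3, with 24 residual degrees of freedom, on all libraries, adjusted by Benjamini-Hochberg over 15587 genes and called at 0.05. The test was also run on simulated counts with differences placed in 6-month heterozygotes with regular activity only. The outcome of that run is not given here, and it did not cover the comparisons of exercise or age. CPM uses library totals (11232143 to 23710331 counts) scaled by TMM, TPM uses GENCODE exon lengths, log2 CPM adds a prior count of 2, and SE is the log2 fold change over the square root of F. All 6 symbols matched the promoter table.

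The 6 genes and all lists were chosen with earlier results of these data known. Ak4 was tested only where no library that chose it enters the contrast, so counts are over 5 genes in the other 8 comparisons. Named genes were the 6, Dsp, up to 3 genes per other list with the smallest p, and 3 genes of most like pattern. A gene of these lists is not reported here. Alternatives were DESeq2 size factors, a replicate block, own groups only, no filter, leaving the mitochondrial genes and the next 10 by abundance out of the scaling, DESeq2 1.42.0, limma-voom (limma 3.58.1), leaving out single or doubtful libraries and, added after seeing the data, a term for Xist-expressing libraries.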

Additional observations from a re-analysis of the deposited data

Results flagged for a closer look

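Within a group of 5, a library was singled out when its gap to the nearest other exceeded 0.71 of the group's range. This marks about 1 in 20 groups by chance, and 36 groups were checked, of which 5 were marked. Exercised heterozygote 4 stood low in Ak1 (606 CPM, the other 4 at 975 to 1043) and in Ak3 (90.9 CPM, the other 4 at 129 to 134). In this library fibroblast markers summed to 1129 CPM (the other 4 at 194 to 292), macrophage markers to 133 CPM (17.6 to 35.2) and atrial markers to 1392 CPM (76.7 to 579), and their part in these values was not tested. It is also the Xist-expressing library of its group, as is the next. Exercised wild type 5 stood low in Ak3 (92.3 CPM, the other 4 at 142 to 158). Exercised heterozygote 5 stood low in Ckb (30.3 CPM, the other 4 at 35.7 to 37.1). Heterozygote 5 at 6 months with regular activity stood high in Ckmt2 (2510.5 CPM, the other 4 at 1979 to 2064).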

How the results depend on the processing

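Of the 570 values of single genes under alternatives other than leaving out 1 library, 539 kept their direction and their side of the threshold (or, for untested Ak4 values, stayed within 0.198 on the log2 scale, the SD between replicates), and so did 678 of 720 with 1 library left out. Counts of genes called moved as follows. After exercise the genotype count was 0 in own groups only (13 of 13673 tested genes called in all). With exercise the wild-type count was 1 without the Xist and Y-linked libraries (642 of 16330 in all). The heterozygote count was 2 in DESeq2 (1760 of 15587 in all) and in limma-voom (2835 of 15587). It was also 2 with a term for Xist-expressing libraries, chosen after seeing the data (1452 of 15587), and without exercised wild type 1 and heterozygote 4 (1610 of 15858). Exercised heterozygotes against regular-activity wild type gave 2 in limma-voom (3018 of 15587 in all) and 0 without the Xist and Y-linked libraries (1095 of 16330). With age the wild-type count was 2 in own groups only (153 of 13908 in all) and 1 in DESeq2 (328 of 15587). The heterozygote count was 0 without the filter (341 of 33051 in all) and in own groups only (657 of 14131). It was 4 without 3-month heterozygotes 1 and 2 (797 of 16439). These 2 libraries had the lowest Ckm, Ckmt2, Ak1 and Ak3 levels of their group, so leaving them out could only enlarge those differences. With 1 library left out, the ranges were 0 to 1 for genotype after exercise, 1 to 2 for exercise in heterozygotes, 2 to 3 in wild type, 0 to 1 for exercised heterozygotes against regular-activity wild type and 0 to 1 for age in heterozygotes.

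Values near 0 changed sign, none of them called, and the cause was not tested. Without 3-month heterozygotes 1 and 2, the genotype value at 3 months was 0.17 for Ckmt2 and 0.0033 for Ak1, and the genotype by age interaction was -0.11 for Ckm and -0.059 for Ak3. In limma-voom, Ak4 at 3 months was -0.11, and the age interaction was 0.18 for Ckmt2 and 0.055 for Ckb. Without exercised wild type 1 and heterozygote 4, Ak1 by genotype was 0.024. With the Xist term, Ak1 with exercise in heterozygotes was -0.0097, and Ckmt2 in exercised heterozygotes against regular-activity wild type was -0.0022. With 1 library left out, the ranges at 3 months were -0.14 to 0.048 for Ckmt2 and -0.058 to 0.085 for Ak4, after exercise -0.12 to 0.097 for Ak1 by genotype, and with exercise in heterozygotes -0.038 to 0.16 for Ak1. The exercise interaction of Ckm ranged from -0.27 to 0.016, and the age interaction from -0.016 to 0.13 for Ckm, -0.16 to 0.033 for Ckmt2, -0.18 to 0.044 for Ckb and -0.023 to 0.11 for Ak3.

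The replicate numbers are not stated to pair the libraries. Deviations of same-numbered libraries had a median correlation of -0.004 over 75 pairs, and 6 were over 0.1. For libraries of other numbers the median was 0.004 over 300 pairs, and 21 were over 0.1. Such correlations cannot exclude a pairing that left little trace in them. With the replicate block no call of a tested gene changed (Ckb by genotype after exercise was 0.57, edgeR adjusted p = 0.0433).

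The number of genes called over the whole table moved more over all alternatives, single left-out libraries included: by genotype 30 (0 to 145) at 3 months, 21 (4 to 476) at 6 months and 63 (13 to 200) after exercise. With exercise it was 1375 (816 to 2835) in heterozygotes and 1511 (642 to 2769) in wild type, and 2046 (1095 to 3018) in exercised heterozygotes against regular-activity wild type. With age it was 534 (181 without 6-month heterozygote 3, to 1367 in limma-voom) in heterozygotes and 134 (32 to 328) in wild type, and the interactions gave 2 (0 to 13) with exercise and 0 (0 to 23) with age.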
